A study of Caenorhabditis elegans with 2 samples.

Results

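Mitochondrial ribosomal proteins build the ribosome that works inside mitochondria. The binding of the zinc-finger protein ROW-1 at their genes was examined in the nematode Caenorhabditis elegans by chromatin immunoprecipitation and sequencing (ChIP-seq). The genes were chosen by name, as every nuclear protein-coding gene whose symbol starts with mrpl- (large subunit) or mrps- (small subunit) in the WBcel235 gene models. This gave 70 genes of 19973, of which 41 belonged to the large and 29 to the small subunit. The rule itself used no measured value, although it was set with earlier results of these data known.

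All material came from 1 group: whole L4 larval hermaphrodites of the transgenic strain OP510, genotype unc-119(tm4063) III; wgIs510. They were taken 48 h after release from L1 starvation following bleaching. OP510 is a stable line whose transgene carries row-1 (F37D6.2) with a GFP-FLAG tag at the C-terminus, and anti-GFP antibody recovered the tagged protein with its DNA. There were 2 biological replicates and no second condition, so no contrast between conditions could be made. Whole animals were used, so a peak cannot be placed in a tissue.

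The mitochondrial ribosome translates the few proteins encoded by mitochondrial DNA, which are core subunits of the respiratory chain. All of its proteins are encoded in the nucleus, made in the cytosol and imported. In C. elegans, knockdown of mrps-5 is known for lengthening lifespan and for inducing the mitochondrial unfolded protein response. Many C. elegans genes lie close behind another gene on the same strand, and some of these are transcribed together as operons from the promoter of the first gene. The annotated 5′ end of a gene is often a trans-splice site, so it need not be the point where transcription starts.

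Of the 70 genes, 9 had a peak of the optimal list at the promoter (12.9%, exact 95% interval 6.05 to 23.01), against 4.58% of all nuclear coding genes. The optimal list holds the 1574 peaks past the authors' threshold of reproducibility between replicates. The promoter was taken as the 500 bp before and the 200 bp after an annotated 5′ end of a transcript, and a peak counted when its summit lay inside. The large subunit contributed mrpl-17, mrpl-18, mrpl-28, mrpl-45, mrpl-49 and mrpl-55 (6 of 41, 14.6%). The small subunit contributed mrps-7, mrps-17 and mrps-35 (3 of 29, 10.3%). Intervals of shares are exact and treat genes as separate draws, although neighbouring genes can share a peak. No test was made on these shares.

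The DNA under the summits is shown for 6 of the 9 genes, so that the letters that recur between them can be seen. Each line gives the 101 bp centred on a summit of the optimal list, 5′ to 3′ on the strand of the named gene, from the RefSeq sequence of WBcel235 (ce11). Capitals mark GTTTGCG or its reverse complement CGCAAAC, and in mrps-7 CTGCGTC or its reverse complement GACGCAG. The windows not shown, of mrpl-17, mrpl-18 and mrps-35, held neither motif. GTTTGCG therefore stands in a larger share of the windows shown than of all 9. The windows are chrII:156065-156165 for mrpl-28 (minus strand), chrIV:443820-443920 for mrpl-55 (plus), chrIII:1202317-1202417 for mrpl-45 (minus), chrV:12728439-12728539 for mrpl-49 (plus), chrIV:14767861-14767961 for mrps-7 (minus) and chrIII:6431874-6431974 for mrps-17 (minus).
mrpl-28: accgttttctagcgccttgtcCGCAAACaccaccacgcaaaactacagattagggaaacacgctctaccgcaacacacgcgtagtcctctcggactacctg
mrpl-55: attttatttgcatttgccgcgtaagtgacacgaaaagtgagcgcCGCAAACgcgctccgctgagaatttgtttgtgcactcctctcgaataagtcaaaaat
mrpl-45: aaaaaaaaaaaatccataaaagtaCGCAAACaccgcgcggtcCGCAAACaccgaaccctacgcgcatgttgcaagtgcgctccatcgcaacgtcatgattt
mrpl-49: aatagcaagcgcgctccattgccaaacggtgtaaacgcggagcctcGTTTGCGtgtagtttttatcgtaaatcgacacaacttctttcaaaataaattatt
mrps-7: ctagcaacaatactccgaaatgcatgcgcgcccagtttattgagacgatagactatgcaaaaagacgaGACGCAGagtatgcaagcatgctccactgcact
mrps-17: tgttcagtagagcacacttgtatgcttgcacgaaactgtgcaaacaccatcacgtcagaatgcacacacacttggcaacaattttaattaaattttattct

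GTTTGCG was picked after the 9 sequences had been read, so its count is a description only. It stood on either strand within 50 bp of the summit in 4 of the 9 member peaks, against 5.90% of the 729 optimal peaks at coding promoters. It stood in 3.41% of the 1553 nuclear optimal peaks and in 0.773% of windows of the same length on either side of them. The match lay 1 bp from the summit in mrpl-49 and 3 bp in mrpl-55. It lay 26 bp away in mrpl-28, and mrpl-45 held a pair of matches 5 and 23 bp away. Around this motif, the windows of mrpl-28 and mrpl-45 shared a run of 13 bases, ggtgtttgcggac on the strand opposite to the one printed. The run contains GTTTGCG, so it is no separate recurrence. No other pair among the 9 windows shared more than 11. The run of 11, gtccgagagga in mrpl-18 and mrpl-28 on either strand, does not contain GTTTGCG. Part of it, cgagagga, also stood in mrpl-55. Whether runs of such length are unusual was not tested. Windows of 101 bp were also centred 151 bp upstream of every gene, the median distance of the 9 member summits. There GTTTGCG occurred in 3 of the 9 members with an optimal peak (33.3%) and in 2 of the 61 without one (3.28%). It occurred in 1.21% of all coding genes. Both the motif and the distance were taken from these 9 peaks, so the contrast is no independent support.

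Of 6 other motifs searched on both strands, only CTGCGTC was found under a member summit, in mrps-7 alone (1 of 9), against 12.3% of the 729 coding promoter peaks. GAGAGA was in 0 of 9 member windows, against 22.9% of coding promoter peaks. The E-box CACGTG was in 0 of 9, against 3.43%, and the GC-box core CCGCCC in 0 of 9, against 6.86%. The GATA-factor motif GATAAG was in 0 of 9, against 1.65%, and the TATA-box letters TATAAA in 0 of 9, against 3.43%. No motif is contained in another. The member windows had a median GC content of 47.5% (range 37.6 to 53.5), against 49.5% for coding promoter peaks. At 151 bp upstream, GC content had a median of 41.6% in the 9 genes with a peak, against 30.7% in the 61 without one and 33.7% in all coding genes. That distance is the median of the 9 member summits, so the windows were placed by the peaks of these 9 genes. Over all 1553 nuclear optimal peaks the median was 49.5%, against 35.6% in windows on either side. A higher GC content at summits was thus not particular to the members.

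The strongest peak lay at mrpl-28, a large-subunit protein with a bacterial counterpart. It had a signal of 164.8 in the optimal list (rank 409 of 1574), with 86.4 in replicate 1 and 73.7 in replicate 2. Signal is the strength of a call as the authors deposited it, on a scale that is not given. Whether the lists share a scale is unknown, so ratios between the replicate lists describe the deposited values and not amounts of binding. The summit was 106 bp upstream of the gene, and no other coding promoter held it. This peak was 115 bp wide, whereas the other 8 were 430 bp wide, the width of 1004 of the 1574 optimal peaks.

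The peak of mrpl-55, a large-subunit protein without a bacterial counterpart, had a signal of 122.7 (rank 691) at 115 bp upstream. It had 80.9 in replicate 1 and 42.0 in replicate 2. It too lay in no other coding promoter. The peak of mrps-7, the homologue of the bacterial protein S7 that starts assembly of the small-subunit head, had a signal of 122.1 (rank 700) at 181 bp upstream. It had 84.3 in replicate 1 and 34.4 in replicate 2. These 3 were the only member peaks above the median of 114.0 over all coding promoter peaks.

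The peak of mrpl-45 had a signal of 104.6 (rank 923), with 61.2 in replicate 1 and 40.9 in replicate 2. In human mitochondria MRPL45 lies at the exit of the peptide tunnel and holds the ribosome to the inner membrane. Its summit was the farthest from its gene among the 9, 359 bp upstream, and was nearer to Y119D3B.12 on the other strand, at 179 bp. The peak of mrpl-17 had a signal of 91.3 (rank 1173) at 152 bp upstream, with 48.4 in replicate 1 and 40.1 in replicate 2. The peak of mrpl-49 had a signal of 89.1 (rank 1216) at 142 bp upstream, with 57.1 in replicate 1 and 28.8 in replicate 2. Both sat on promoters shared with a gene of the other strand.

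The peak of mrps-17 had a signal of 88.1 (rank 1238) at 126 bp upstream, with 49.9 in replicate 1 and 38.0 in replicate 2. The peak of mrps-35 had a signal of 86.3 (rank 1289) at 151 bp upstream, with 43.0 in replicate 1 and 41.8 in replicate 2. The weakest, at mrpl-18, had a signal of 77.3 (rank 1501) at 249 bp upstream, with 52.1 in replicate 1 and 24.8 in replicate 2. Thus 6 of the 9 were at or below the median of coding promoter peaks. Their median signal was 91.3 (range 77.3 to 164.8), against 114.0 for coding promoter peaks (quartiles 90.4 and 169.0, highest 1231). None was among the 250 strongest pooled calls, which gave a promoter call to only 0.781% of all coding genes.

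**Figure D1:**
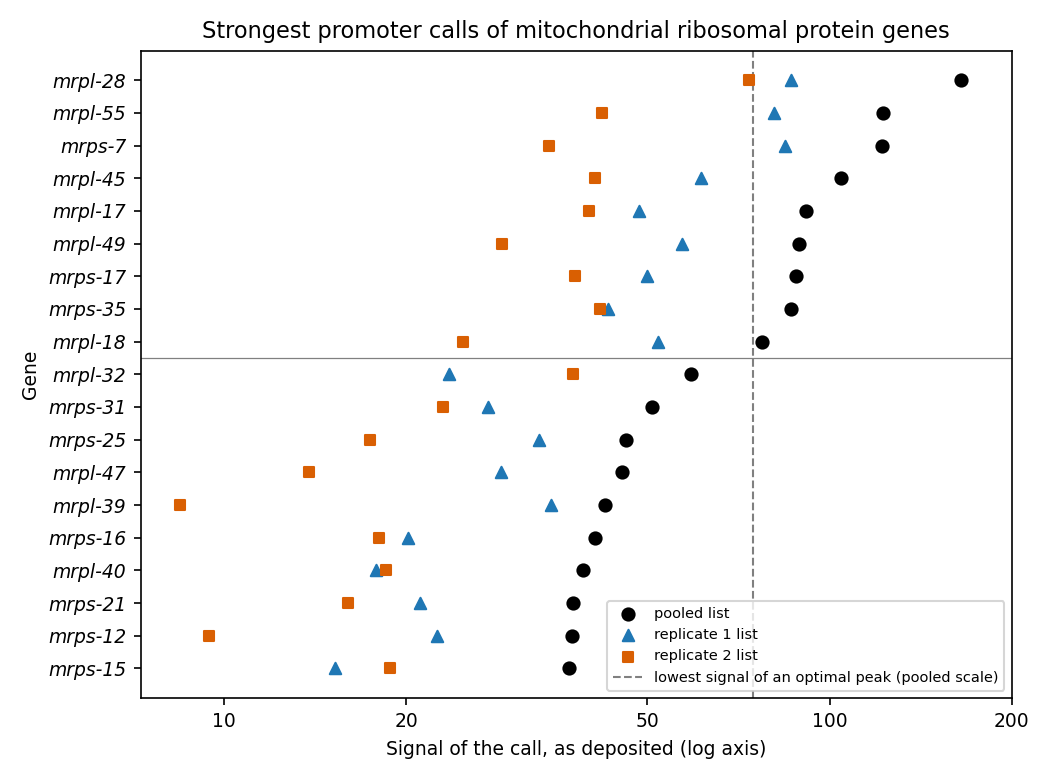
Signal of the strongest promoter call of 19 mitochondrial ribosomal protein genes in the pooled list (circles), on a log axis. Triangles and squares are the strongest overlapping calls in the replicate 1 and replicate 2 lists. The 9 genes above the horizontal line have an optimal peak, from mrpl-28 at 164.8 to mrpl-18 at 77.3 in the pooled list, and the next is mrpl-32 at 58.95; the dashed line is the lowest signal of an optimal peak, 74.8, and applies to the circles.

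All 9 peaks had a call in each replicate list, with summits within 58 bp of the optimal summit. The signal was higher in replicate 1 than in replicate 2 at all 9, by a median ratio of 1.497 (range 1.03 to 2.45). The ratio had a median of 1.42 over the 1571 optimal peaks with a call in both lists (5th percentile 0.883, 95th 2.41). The widest ratio, 2.45 at mrps-7, was past that 95th percentile. Among the 1574 strongest calls of each replicate, 8 of the 9 were found in replicate 1 (all but mrps-35) and 7 in replicate 2 (all but mrpl-18 and mrpl-49). Thus 6 of the 9 ranked that high in both, against 76.0% of all optimal peaks. Taken singly, 90.7% of all optimal peaks ranked that high in replicate 1 and 84.6% in replicate 2.

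All 9 summits lay upstream of the gene, as did 94.75% of those of all coding genes with an optimal promoter peak. Of the 9, 7 fell at least 100 bp and under 200 bp upstream. Among all 914 coding genes with an optimal promoter peak, 29.5% had the summit in that interval. The interval was not part of the plan and closely brackets these 7 summits, so its counts are a description only. The median distance was 151 bp (range 106 to 359) for the members, against 199 bp (quartiles 119 and 301) for all coding genes with a peak. Cytosolic ribosomal protein genes (symbols rpl- or rps-), which encode the ribosome of the cytosol, had a median of 289 bp (quartiles 261 and 364), and 3 of their 44 genes with a peak fell in that interval. No member had an optimal summit inside its gene model, against 375 coding genes (1.88%).

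**Figure D2:**
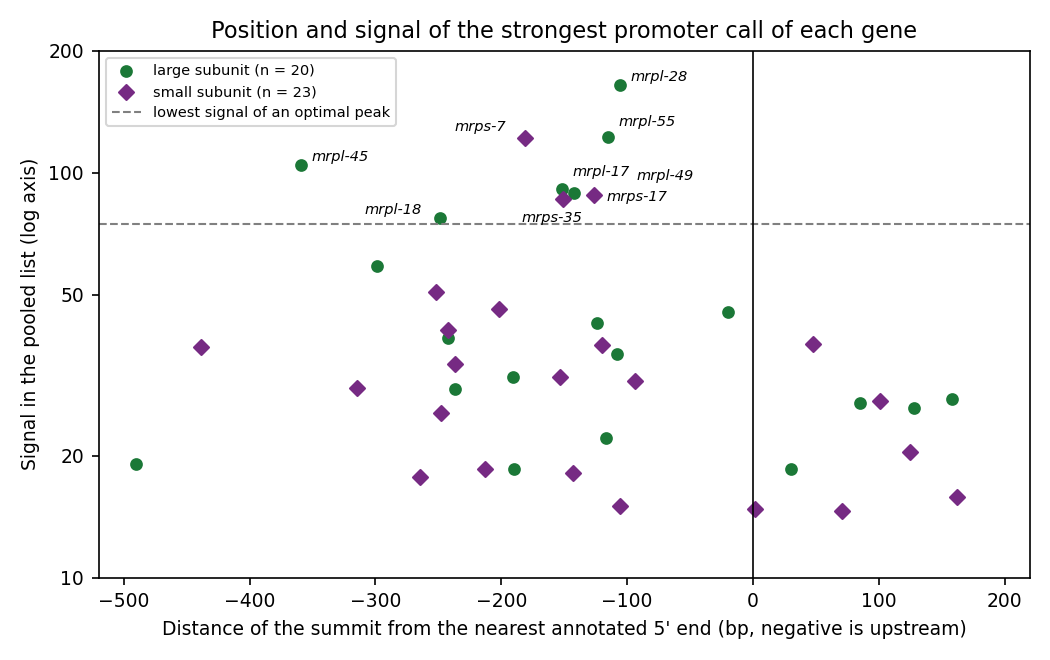
Signal in the pooled list (log axis) of the strongest promoter call of each of the 43 genes with a call, against the distance of its summit from the nearest annotated 5′ end in bp, negative being upstream; circles are large-subunit and diamonds small-subunit genes. The 9 optimal peaks are named and lie 106 to 359 bp upstream, while the weaker calls spread over the window on both sides of the 5′ end.

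Of the 9 peaks, 7 also lay in the promoter of a coding gene on the other strand, so they cannot be assigned to either gene. The same held for 44.1% of all coding genes with an optimal promoter peak (403 of 914). The partner of mrpl-49 was rpl-28, a large-subunit protein of the cytosolic ribosome, with the summit 377 bp upstream of rpl-28 and a gap of 519 bp between the 5′ ends. It was the only cytosolic ribosomal protein gene to share an optimal promoter peak with a member. The partner of mrpl-17 was vbh-1, a DEAD-box RNA helicase of the Vasa and Belle family (270 bp from the summit). The partner of mrps-17 was txdc-9, a thioredoxin-domain protein (254 bp).

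The remaining partners were Y57G11C.3 for mrps-7 (290 bp from the summit), Y119D3B.12 for mrpl-45 (179 bp), C14B9.8 for mrpl-18 (137 bp) and sws-1 for mrps-35. The homologues of sws-1, a SWIM-domain protein, act in homologous recombination. The summit of the last peak was 5 bp upstream of an annotated 5′ end of sws-1 and inside its gene model, and the 5′ ends of the pair were 156 bp apart. The summit was nearer to the member than to its partner in 4 of these 7 pairs and nearer to the partner at mrpl-45, mrpl-18 and mrps-35. Only mrpl-28 and mrpl-55 had a peak of their own.

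The pooled list, which was called on both replicates together and also holds background, reached further. Any call at the promoter was present in 43 of the 70 genes (61.4%, interval 49.03 to 72.83), against 29.2% of all coding genes. By subunit, 20 of 41 large-subunit genes had a call (48.8%, interval 32.9 to 64.9) and 23 of 29 small-subunit genes (79.3%, interval 60.3 to 92.0). The order of the subunits was therefore the other way round from that of the optimal peaks. The intervals overlapped almost fully for optimal peaks, but for pooled calls only from 60.3 to 64.9. Overlap of intervals does not measure a difference, and the difference between subunits was not tested. Most of the gap for pooled calls came with the weaker calls. With the 5000 strongest pooled calls the shares were 26.8% of large-subunit and 31.0% of small-subunit genes. The strongest call had a median signal of 31.3 in the 43 members, against 27.1 in all coding genes with a call.

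For 34 members the call was below the optimal list, 14 in the large and 20 in the small subunit. Their signals ran between 14.7 and 59.0 with a median of 28.5, and 18 of them had an overlapping call in both replicate lists. A call was found for 23 in replicate 1, for 27 in replicate 2 and for 2 in neither. The matching shares over all coding genes with weaker calls only are not given, so these counts cannot be called high or low. Summits were upstream in 24 and downstream of the 5′ end in 10 (70.6% upstream), against 75.4% upstream among 4914 coding genes with weaker calls only. A call in this list may be background, and its signal alone does not show binding. The deposited −log10 of the q-value, higher for a surer call, was 3.019 at each of the 9 optimal peaks. It was between 3.019 (mrpl-32) and 1.427 (mrps-15) at the 10 strongest weaker calls. At all the others it ran from 1.291 (mrpl-35) down to 0.0718 (mrps-30), so those calls are poorly separated from background.

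The strongest of these were at mrpl-32 and mrps-31. The homologue of mrpl-32 in yeast and mouse is matured by the m-AAA protease. Its call had a signal of 58.95 in the pooled list, rank 2247 of the pooled calls, and was 299 bp upstream. It was the highest value of a member outside the optimal list, beside 77.3 at mrpl-18 as the lowest inside. It had 23.5 in replicate 1 and 37.6 in replicate 2, the order opposite to that of the 9 peaks. The call of mrps-31 had a signal of 50.8, with 27.2 in replicate 1 and 22.99 in replicate 2, at 252 bp upstream. Both genes entered when the 3148 strongest pooled calls were used (11 of 70, against 7.98% of coding genes).

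Next came mrps-25, whose call had 46.1 in the pooled list, 33.1 in replicate 1 and 17.4 in replicate 2. The call of mrpl-47 had a pooled signal of 45.4, with 28.7 in replicate 1 and 13.8 in replicate 2; the values in brackets below are in the same order of replicates. The call of mrpl-39 had 42.6, with 34.6 in replicate 1 but only 8.45 in replicate 2, a ratio of 4.10. The call of mrps-16 had 40.97 (20.11 and 18.02), mrpl-40 had 39.1 (17.8 and 18.5) and mrps-21 had 37.7 (21.0 and 16.0). The call of mrps-12, the homologue of bacterial S12 at the decoding centre, had 37.5, with 22.5 in replicate 1 and 9.42 in replicate 2. The call of mrps-15 had 37.1 (15.2 and 18.8). Of these 10 genes, replicate 1 was the higher in 7, and the exceptions were mrpl-32, mrpl-40 and mrps-15. A replicate value comes from any call that overlaps the pooled call, so its summit can lie elsewhere. The replicate 2 summit was shifted from the pooled summit by -259 bp at mrps-16, 166 bp at mrps-25 and 130 bp at mrpl-39. Those replicate 2 values, and the ratio of 4.10, may thus belong to separate calls. No other shift among the 10 genes exceeded 104 bp (mrps-31, replicate 1).

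The other 27 members had no promoter call in the pooled list, 21 of the large and 6 of the small subunit. Among them was mrps-5, the gene best known in the worm for its effect on lifespan. It lies 104 bp downstream of sel-1 on the same strand, and the strongest pooled call at the promoter of sel-1 had a signal of 19.8, so neither had an optimal peak. The optimal summit nearest to a 5′ end of mrps-5 was 65560 bp away. The lists do not give the read coverage, so whether a weaker enrichment is present there cannot be read from them.

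As weaker pooled calls were added in order of signal, the members' share passed that of all coding genes only beyond the 500 strongest. With the 500 strongest calls, 1.43% of members had a promoter call, against 1.54% of all coding genes. With 1000 calls the share was 5.71% of members, against 2.93% of coding genes, and with 5000 calls 28.6%, against 10.7%. With 10000 calls it was 44.3%, against 16.2%. Cytosolic ribosomal protein genes were already at 24.4% with 500 calls and 43.6% with 1000, and 44 of the 78 had an optimal promoter peak (56.4%). The distance between the mitochondrial and the cytosolic genes depended on the window. In the narrower promoter (250 bp before to 100 bp after the 5′ end), 8 of 70 members had an optimal peak (11.4%), against 9 of 78 cytosolic genes (11.5%). By the nearest gene of each summit it was 10 members (14.3%), against 28 cytosolic genes (35.9%). For any pooled call the order turned round in the narrow window, with 34 of 70 members (48.6%), against 20 of 78 cytosolic genes (25.6%).

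**Figure D3:**
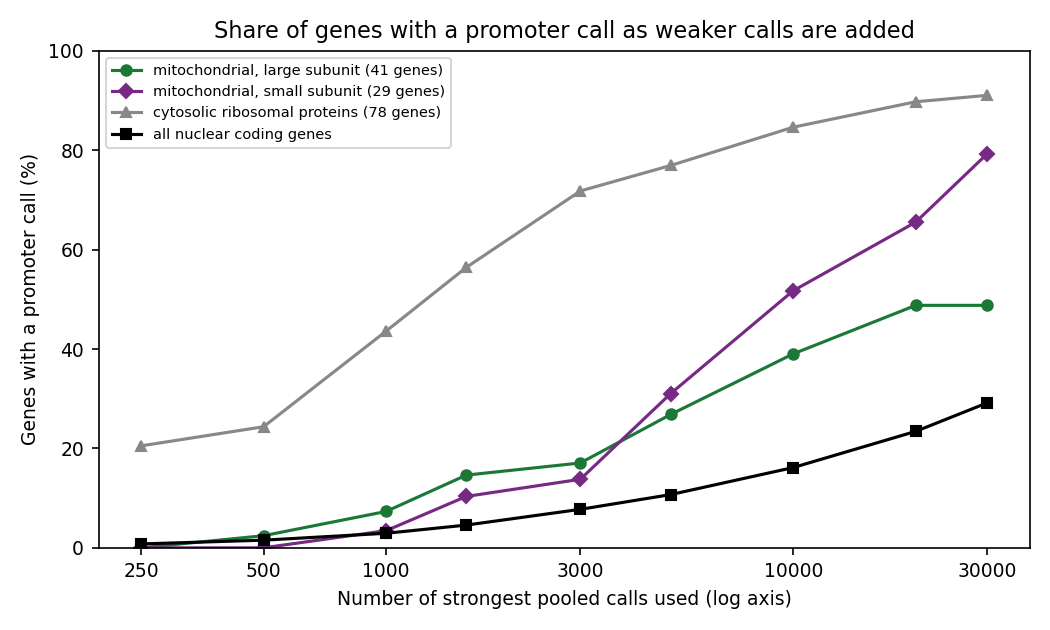
Percentage of genes with a promoter call against the number of strongest pooled calls used (log axis), for large-subunit (circles) and small-subunit (diamonds) mitochondrial, cytosolic (triangles) ribosomal protein genes and all nuclear coding genes (squares). With 3000 calls large-subunit genes are at 17.1% and small-subunit genes at 13.8%, and with all calls they are at 48.8% and 79.3%, above all coding genes (29.2%) and, in this promoter window but not in the narrower one, below the cytosolic genes (91.0%).

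Close neighbours were more frequent among the members than among all coding genes. A coding gene on the same strand ended within 1000 bp upstream of 36 of the 70 (51.4%), against 31.5% of all coding genes. A coding gene on the other strand started within 1000 bp of 28 (40%), against 18.3% of all coding genes. These arrangements do not exclude each other, and 9 members had neither. By chromosome, 22 members were on III (31.4%, against 13.2% of coding genes), 15 on I, 12 on II, 11 on IV, 10 on V and 0 on X, which holds 13.7% of coding genes.

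Peaks were rare behind a same-strand gene. Among the 36 members behind a same-strand gene, 1 had an optimal promoter peak (2.78%, interval 0.0703 to 14.5), against 2.99% of all coding genes so placed. That gene was mrpl-49, which also has rpl-28 across from it. Its same-strand neighbour R11D1.13 ended 995 bp upstream, just inside the limit of 1000 bp. Among the 34 members with no such neighbour, 8 had a peak (23.5%, interval 10.8 to 41.2), against 5.31% of all coding genes of that kind. Where a gene on the other strand started within 1000 bp, 7 of 28 members had a peak (25%, interval 10.7 to 44.9), against 12.4% of coding genes. Of the 9 with neither neighbour, 2 had a peak (22.2%, interval 2.81 to 60.01), against 2.83% of coding genes.

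**Figure D4:**
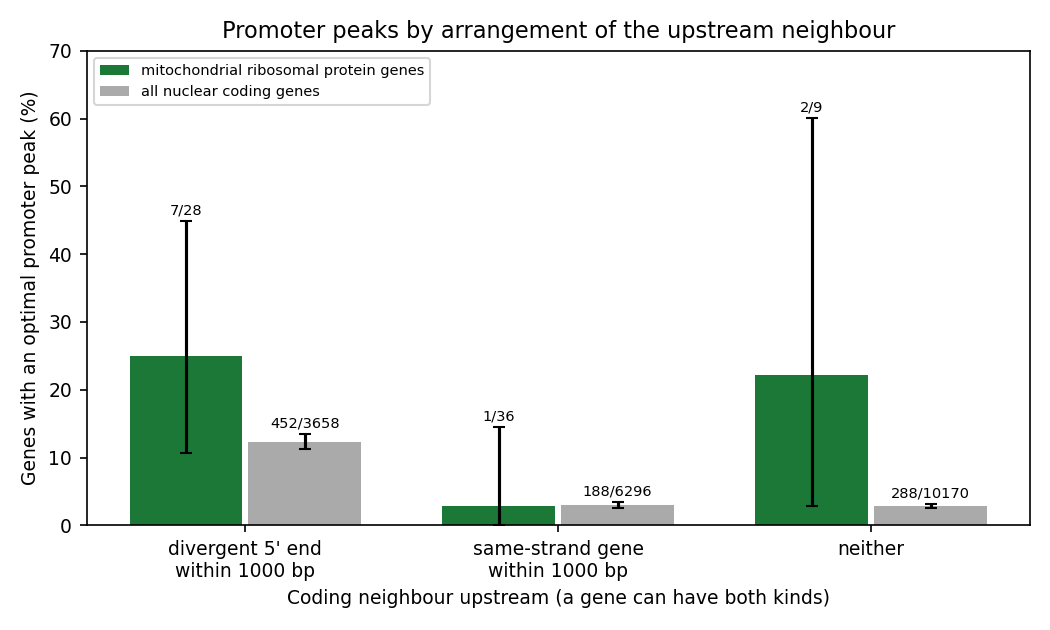
Percentage of genes with an optimal promoter peak by the coding neighbour upstream, for mitochondrial ribosomal protein genes (green, left) and all nuclear coding genes (grey, right); bars start at 0, error bars are exact 95% intervals and labels give genes with a peak over all genes. Members behind a same-strand gene are at 2.78%, close to the 2.99% of all coding genes. Members with a divergent 5′ end are at 25%, and those with neither neighbour are at 22.2%. The 3 members with both neighbours, 1 of them with a peak (mrpl-49), are counted in both groups.

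For members behind a same-strand gene, the row of tandem genes was followed upstream to the first one, a step added after the data were seen. The first gene had an optimal promoter peak for 8 of the 36 members (22.2%), against 8.29% of the 6296 coding genes so placed. The strongest were at rpn-3, a proteasome lid subunit ahead of mrpl-32 (241.8), at clsp-1, the claspin homologue ahead of mrpl-54 (236.9), and at F29B9.11 ahead of mrps-21 (197.1). Others were at eif-3.E, a translation initiation factor subunit ahead of mrps-30 (127.9), and at ech-5 ahead of mrpl-46 (120.2). The peak at atp-2, the beta subunit of ATP synthase ahead of mrps-26, had a signal of 117.8. The last of the 8 were at W04D2.4 ahead of mrps-11 (112.1) and at sftb-1 ahead of mrpl-21 (83.6).

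None of these 8 members had an optimal promoter peak of its own, and the genes named here were chosen after their values were seen. Distance along the strand does not show that a row is one transcription unit, and the files hold no measure of it. The nearest optimal summit was a median of 8679 bp from a member's 5′ end, against 28230 bp over all coding genes. It was within 1000 bp for 13 members (18.6%), against 6.38% of coding genes, and beyond 5000 bp for 61.4%, against 84.6%.

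A pair of places had 2 members side by side. The genes mrpl-1 and mrps-24 run apart from each other with 344 bp between their 5′ ends and shared 1 pooled call with a signal of 31.3. This call also lay at the promoter of emc-6, on the strand of mrpl-1, whose 5′ end was 309 bp from that of mrps-24. It had 23.5 in replicate 1 and no overlapping call in replicate 2. The gene mrpl-4 follows mrps-2 on the same strand after 106 bp, and both stand behind natc-1. The call at mrpl-4 had a signal of 27.0, mrps-2 had none, and the call at natc-1 had 59.1. None of these was in the optimal list.

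The count of members moved with the rule that ties peaks to genes. From 250 bp upstream to 100 bp downstream, 8 members had an optimal peak, against 2.83% of coding genes, and mrpl-45 was lost. From 1000 bp upstream to 500 bp downstream there were 13, against 6.08%, with mrpl-12, mrpl-15, mrpl-23 and mrpl-37 added. By overlap of the peak with the promoter there were 12, against 5.25%. Giving each summit to its nearest gene left 10, against 6.77%, of which 6 were among the 9. It dropped mrpl-18, mrpl-45 and mrps-35 and added mrpl-15, mrpl-20, mrpl-23 and mrpl-51.

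Of those added, the peak near mrpl-12 had a signal of 125.2 at 524 bp upstream, in the promoters of Y39A1A.21 and Y39A1A.22. In human cells the homologue MRPL12 is also known to bind the mitochondrial RNA polymerase. The peak near mrpl-37 had 91.1 at 674 bp, in the promoter of lin-38. The peak near mrpl-15 (93.5 at 661 bp) lay in no other promoter, and that near mrpl-23 (81.3 at 978 bp) only in promoters of genes that are not protein-coding. The peaks given to mrpl-20 (192.3) and mrpl-51 (89.7) were 2901 bp upstream and 1333 bp downstream of the 5′ end.

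The stronger 50% of the optimal peaks (787) kept mrpl-28, mrpl-55 and mrps-7, 3 of 70 against 2.31% of coding genes. Taking the 1574 strongest calls of replicate 2 alone, so without replicate 1, gave 9 members against 4.22% of coding genes; mrpl-12 and mrpl-32 came in for mrpl-18 and mrpl-49. Taking replicate 1 alone, so without replicate 2, gave 8 against 4.59%, with mrps-35 lost. The same 9 genes had a peak with RefSeq 5′ ends (9 of 70, against 4.44%). They were also the 9 with a peak in the authors' optimal list of the assembly ce10 (9 of 70, against 6.03%), which has 2157 peaks and a lowest signal of 60.5, against 1574 and 74.8 in the ce11 list. The ce10 peaks were matched to pooled calls by signal. The strongest member call outside the 9, 58.95 at mrpl-32, was below that lowest signal, so no other member could enter.

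Any pooled call was found at 34 members in the narrow window (against 19.2% of coding genes) and at 52 in the wide one (against 40.1%). It was found at 50 by overlap (against 35.7%) and at 50 by the nearest gene (against 51.5%). All calls without replicate 1 reached 38 members (against 26.2%), and all calls without replicate 2 also reached 38 (against 28.9%). In each of these replicate lists 19 were large-subunit and 19 small-subunit genes, of 41 and 29.

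Other nuclear genes for mitochondria were set beside the members, from typed lists. The lists were made with earlier results of these data known. Of 16 matched genes typed as mitochondrial translation, mostly translation factors and tRNA synthetases, 2 had an optimal promoter peak (12.5%, interval 1.55 to 38.4). The list also held dap-3, whose human homologue is a protein of the small mitochondrial subunit and which had no pooled call, and without it the count was 2 of 15 (13.3%). They were ears-2, the mitochondrial glutamyl-tRNA synthetase, with a signal of 182.7 on a promoter shared with uncp-18, and gfm-1, the mitochondrial elongation factor G, with 79.3. The call of tufm-2, a mitochondrial elongation factor Tu, had 72.3, just below the optimal list, and that of yars-2 had 43.7. Of 5 genes for mitochondrial DNA maintenance and transcription none had an optimal peak (upper limit of the exact interval 52.2%), although 4 had a pooled call, the strongest at mtss-1 with 48.4.

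Of 17 genes typed as mitochondrial import, 8 had an optimal promoter peak (47.1%, interval 22.98 to 72.19). The strongest was at ddp-1, a small chaperone of the intermembrane space, with a signal of 280.6, followed by the import receptor tomm-20 with 182.9. One of the 8, tim-1 (151.3), is the worm homologue of Timeless and no import gene, and without it the count was 7 of 16. The core channel genes timm-17B.1 and timm-23 had 107.5 and 94.5, and mppb-1, a subunit of the processing peptidase, had 95.6. Of 9 genes for mitochondrial chaperones and stress response, 2 had an optimal peak (22.2%, interval 2.81 to 60.01): ubl-5 with 104.4 and the matrix protease clpp-1 with 100.5, whose peak was shared with mdt-22. The transcription factor atfs-1 (51.7) and the mitochondrial Hsp70 gene hsp-6 (47.7) had weaker calls only.

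**Figure D5:**
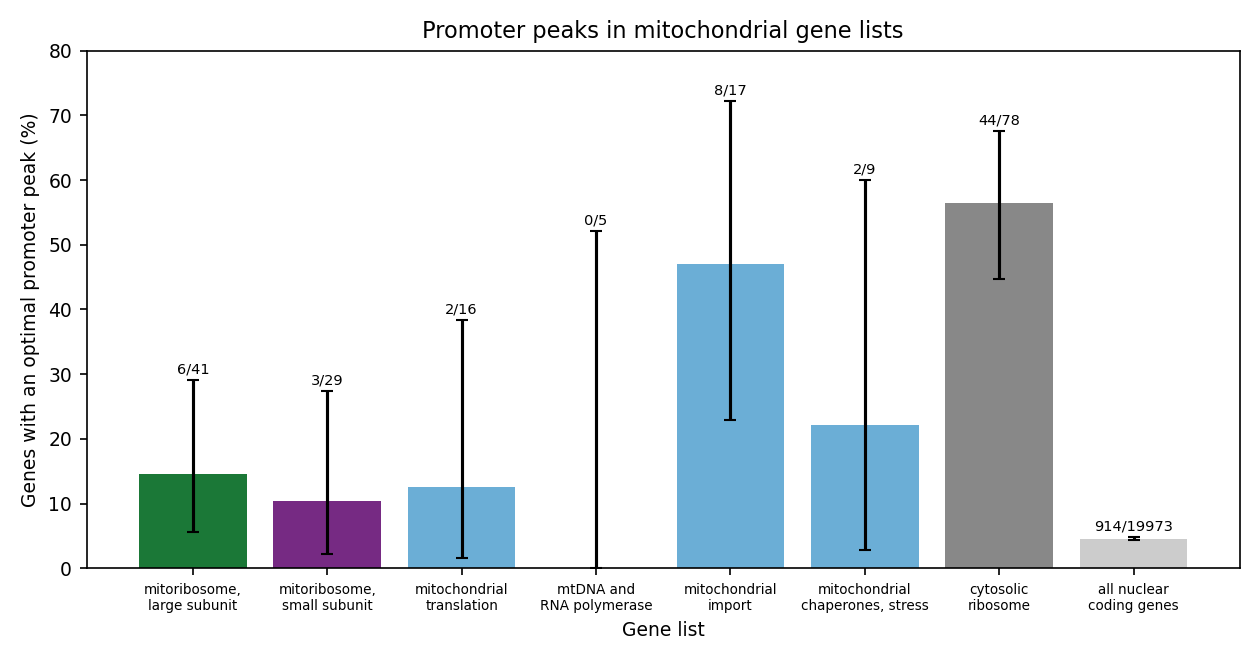
Percentage of genes with an optimal promoter peak for the mitochondrial ribosomal protein genes by subunit, 4 other typed mitochondrial lists, cytosolic ribosomal protein genes and all nuclear coding genes; bars start at 0, error bars are exact 95% intervals and labels give genes with a peak over matched genes. The subunits are at 14.6% and 10.3%, the import list is at 47.1% with tim-1 included, and all coding genes are at 4.58%.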

How the data were processed

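The sources were lists of ChIP-seq peaks in narrowPeak format on ce11: an optimal list (1574 peaks), a pooled list (30000 calls) and 1 list per replicate (28339 and 25405 calls). Per the deposited file listing, the optimal list holds peaks past a threshold of the irreproducible discovery rate, and the others hold peaks and background as its input. Column 7 gives a signal and column 9 the −log10 of a q-value, both by the authors' caller and used as deposited. For the aligner, caller, threshold and signal scale, the sources used here give nothing. No counts were used, so the depth is unknown.

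Summits were set against 5′ ends of Ensembl release 115 (WBcel235), with a promoter of 500 bp upstream to 200 bp downstream, using Python 3.11.15, pandas 2.3.3, numpy 2.4.6 and scipy 1.17.1. A replicate's value is its strongest call that overlaps the pooled call by 1 bp. Sequences came from RefSeq. Shares have exact Clopper-Pearson intervals at 95%, which cover counting error only. Pooled calls were matched to the ce10 optimal list by chromosome, position within 1000 bp as deposited and signal within 1%, with no conversion of coordinates. The rules for finding promoter peaks were tested on simulated peaks.

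The members, lists, motifs and alternatives were chosen with earlier results of these data known. The genes named are those with an optimal peak, the 10 with the next strongest calls, mrps-5, genes that share a member's peak and up to 4 leading genes of each list, and further names were chosen after their values were seen. The alternatives were other windows, overlap, the nearest gene, stronger or weaker cutoffs and each replicate alone. RefSeq 5′ ends, the ce10 list and the motif GTTTGCG were added after the data were seen. Of the typed genes, wars-2 did not match the annotation.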

Additional observations from a re-analysis of the deposited data

How the results depend on the processing

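The count of 9 members stayed within 1.5 times under other windows, overlap, the nearest gene, the 3148 strongest pooled calls and RefSeq 5′ ends (8 to 13). It was also 9 with the ce10 list. The lowest signal of that list, 60.5, lies below all 9 peaks and above the next member call (58.95), so its count is no independent check. With the stronger 50% of the optimal peaks the count was 3, of which 2 were large-subunit and 1 small-subunit genes. The median signal of their peaks was 122.7, and that setting keeps high signals by construction. In the window of 1000 bp upstream to 500 bp downstream 10 large-subunit genes had a peak, against 6 in the window used. Leaving out a replicate gave 8 to 9 members, 6 large-subunit genes in either case, 2 to 3 small-subunit genes and 38 members with any call in either case. Without replicate 1, mrpl-18 and mrpl-49 had no peak, and without replicate 2, mrps-35 had none. No paired analysis was possible because there was 1 group and no test. With 9 peaks the intervals are wide, no read counts were used, and 7 of the 9 peaks belong to either of 2 genes.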
